A study of Mus musculus with 18 samples.

Results

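The genes described here are those whose expression was highest 1 day after mouse embryonic stem cells (mESCs) were placed in differentiation conditions and had dropped by days 2 and 3, some of them to levels still well above day 0. They were selected on their measured values: a mean of at least 5 TPM on day 1 (a transcript level scaled for length and for the total of its library), at least 2 times the mean of each of days 0, 2 and 3, with the lowest day 1 library above every library of the other days. The rule was met by 119 of the 24369 genes with TPM values, which is 1.25% of the 9488 genes with a day 1 mean of at least 5 TPM. The same rule with another day as the peak found 465 genes for day 0, 11 for day 2 and 133 for day 3. Since day 1 chose these genes, its values are given as a description with no test, and the rule also used the values of the other 3 days.

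All libraries came from the E14 line of mESCs with the genotype Rex1GFPd2-Cas9, in which a destabilized GFP reports *Rex1* (*Zfp42*), a gene of the naive state, and *Cas9* is carried at the *Rosa26* locus. The time course holds 3 libraries for each of days 0, 1, 2 and 3 of differentiation, and the study's general methods describe differentiation in NDiff227-based medium without LIF and inhibitors. For other assays they describe plating on gelatin of GFP+ cells sorted from serum and LIF. Whether the cultures of the time course were started that way is not stated. A second set holds 2 libraries each of cells sorted as GFP+ from wild-type, Rex1GFPd2-Cas9 *Nprl2*-/- (*Nprl2* KO) and Rex1GFPd2-Cas9 *Tsc2*-/- (*Tsc2* KO) mESCs. KO lines were clones made by deleting an exon with CRISPR-Cas9, and whether the libraries of a genotype come from different clones is not stated. Where libraries are not separate cultures or clones, the p-values below measure a spread that may be technical.

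Estimated counts summed to between 8610357 and 15305054 per library. The targeted genes were lower in their own KO, although an exon deletion leaves part of the transcript to be counted: *Nprl2* was at 8.37 ± 0.40 TPM in *Nprl2* KO and 16.5 ± 0.64 TPM in wild-type (SD, n = 2), and *Tsc2* was at 19.5 ± 1.08 TPM in *Tsc2* KO and 45 ± 0.03 TPM in wild-type. The pluripotency gene *Pou5f1* (Oct4) was high throughout, from 1232.5 ± 133.5 TPM on day 3 to 1845.3 ± 74.4 TPM on day 0 (SD, n = 3). Summed TPM of 17 naive pluripotency genes lay between 3725.7 and 3954.2 on day 0 and between 739.7 and 828.2 on day 1. Among markers of other cell types, 18 primitive endoderm genes, several of which encode widely expressed matrix proteins, summed to between 332.2 and 373.6 TPM on day 1 (438.7 to 558.6 TPM on day 0). On day 1, 16 fibroblast genes (all detected) summed to between 40.3 and 43.3 TPM. On that day 13 trophoblast genes summed to between 50.5 and 60.8 TPM, with *Elf5* at 0 in all 3 libraries. The blood cell marker *Ptprc* was at 0.120 ± 0.0251 TPM on day 1. A list of 11 blood cell markers, added after these genes were seen, summed to between 74.6 and 87.1 TPM. GFP+ cells were sorted from cultures kept in serum and LIF on fibroblast feeders. In bulk RNA a lower value can mean fewer cells that express a gene or less RNA per cell, and these cannot be told apart.

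As background, mESCs leave the naive state within about a day once signals that hold them there are removed, and pass through a formative state in which the factors of the naive network fall and those of the post-implantation epiblast appear. De novo DNA methylation, a change in enhancer use by Oct4 and responsiveness to lineage signals are hallmarks of that step. Nprl2 is a subunit of GATOR1, which restrains mTORC1 when amino acids are scarce, and Tsc2 restrains mTORC1 through the small GTPase Rheb.

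Promoter sequence was available from RefSeq (GRCm38.p6) for 88 of the 119 genes. The 250 bases before the most upstream listed start are printed for 5 of them, chosen after their values were seen. *Gadd45g*, *Gadd45a*, *Lef1* and *Csrnp1* stand for the genes that were called higher on day 3 than on day 0 and lower after loss of *Tsc2*, and *Tex19.1* for those that went the other way in both. Letters in capitals match 1 of 11 short motifs searched on both strands.

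*Gadd45g*, chr13:51846425-51846674, plus strand: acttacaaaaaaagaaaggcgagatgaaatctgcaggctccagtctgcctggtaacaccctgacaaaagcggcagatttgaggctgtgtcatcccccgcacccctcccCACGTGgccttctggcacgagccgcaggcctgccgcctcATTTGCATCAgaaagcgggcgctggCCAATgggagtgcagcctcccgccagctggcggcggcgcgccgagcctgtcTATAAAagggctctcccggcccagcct

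*Gadd45a*, chr6:67037408-67037657, minus strand: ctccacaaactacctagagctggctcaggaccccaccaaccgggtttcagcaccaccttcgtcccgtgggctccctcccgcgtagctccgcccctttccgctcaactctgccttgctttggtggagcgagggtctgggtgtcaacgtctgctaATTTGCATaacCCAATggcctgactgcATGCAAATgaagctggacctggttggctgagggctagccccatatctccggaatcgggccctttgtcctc

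*Lef1*, chr3:131110047-131110296, plus strand: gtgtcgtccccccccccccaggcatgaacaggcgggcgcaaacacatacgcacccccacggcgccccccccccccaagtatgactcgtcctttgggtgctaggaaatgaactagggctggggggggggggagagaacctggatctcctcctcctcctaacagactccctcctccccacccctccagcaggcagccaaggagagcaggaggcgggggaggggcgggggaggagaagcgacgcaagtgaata

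*Csrnp1*, chr9:119984743-119984992, minus strand: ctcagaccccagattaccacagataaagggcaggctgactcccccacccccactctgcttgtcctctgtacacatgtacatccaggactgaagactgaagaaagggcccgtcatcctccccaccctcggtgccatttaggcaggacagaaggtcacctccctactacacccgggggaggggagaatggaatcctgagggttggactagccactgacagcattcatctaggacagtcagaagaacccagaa

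*Tex19.1*, chr11:121145893-121146142, plus strand: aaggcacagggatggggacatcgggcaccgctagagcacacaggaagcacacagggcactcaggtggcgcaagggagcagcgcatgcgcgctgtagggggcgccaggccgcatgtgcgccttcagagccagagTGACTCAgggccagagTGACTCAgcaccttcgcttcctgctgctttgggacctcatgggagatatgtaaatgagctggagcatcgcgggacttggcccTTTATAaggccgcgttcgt

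*Gadd45g* held an octamer (ATTTGCAT, the motif of Oct4 and other POU factors) 103 bases before its start, overlapping an ATF4 motif (TGATGNAA), with an E-box 142, a CCAAT box 78 and a TATA motif 27 bases before the start. *Gadd45a* held 2 octamers in opposite orientations, 97 and 70 bases before its start, around a CCAAT box. *Tex19.1* held 2 AP-1 motifs (TGANTCA) 117 and 101 bases before its start and a TATA motif at 19 bases, and in *Lef1* and *Csrnp1* none of the 11 motifs lay in the printed stretch. Over whole promoters of 300 bases, 250 before the start and 50 after it, an octamer was found in 3.39% of the 118 listed promoters of these genes and in 1.74% of all 32851 promoters. AP-1 motifs were found in 12.7% and 7.81%, TCF/LEF motifs (CTTTGAT) in 2.54% and 3.73%, and CCAAT boxes in 36.4% and 37.4%. The remaining motifs searched were ETS (CCGGAAG, 5.08% and 8.86%), STAT (TTCNNNGAA, 5.93% and 8.30%), KLF (GGGCGTGG, 4.24% and 5.33%), CRE (TGACGTCA, 1.69% and 1.79%) and ATF4 (3.39% and 3.97%). E-boxes (CACGTG) were found in 7.63% and 7.15%. TATA motifs (TATAAA) were found in 12.7% and 13.6%. A match of letters is a description and shows no binding.

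The height of the peak differed widely between genes. The ratio of the day 1 mean to the highest mean of another day had a median of 2.45 and ranged from 2.00 (*Icosl*) to 60.9 (*Edn2*). It was 10 or more for 4 genes, 5 or more for 10 and 3 or more for 30. Day 1 means ranged from 5.02 TPM (*Cox7b2*) to 704.0 TPM (*Akr1b3*), with a median of 20.9 TPM, 15 genes at 100 TPM or more and 36 under 10 TPM. The coefficient of variation between the day 1 libraries had a median of 8.99% over the 119 genes, from 0.776% (*Dnmt3a*) to 60.5% (*Xlr5c*). The rule set a condition on the lowest day 1 library, so this spread is not independent of it.

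Near the limits of the rule, *Icosl*, *0610040F04Rik* and *Tnfsf13* were just inside the fold threshold with ratios of 2.00 to 2.01, and *Hells*, *Gpn1* and *Actn4* just outside it with ratios of 1.995 to 1.998 and day 1 means between 212.4 and 584.6 TPM. *Cox7b2*, *2900041M22Rik* and *AI662270* were just above the minimum with day 1 means of 5.02 to 5.04 TPM, and *Esam* (4.84 TPM), *Tuba3b* (4.74 TPM) and *Gm5635* (4.69 TPM) just under it. The condition on single libraries left out 4 genes, *Defb5*, *Gm3417*, *Mir3113* and *Pla2g10os*. It was met most narrowly by *Gm8994*, *Xlr5c* and *Rhox1*, whose lowest day 1 library was 1.01 to 1.14 times the highest library of another day.

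Not all symbols are separate measurements. *Gm6763*, *Gm8764*, *Gm21293* and *Gm21304*, which lie one after the other on chromosome 10, had identical values in all libraries, as had *Dmrtc1c1* and *Dmrtc1c2* on chromosome X, so that the 119 symbols hold 115 distinct profiles. Other members lie near each other: the 4 *Zscan4* copies on chromosome 7 between 10794241 and 11402318, *Tnfsf12* and *Tnfsf13* 0.7 kb apart on chromosome 11, and *Asphd1*, *Mvp* and *Spn* on chromosome 7 with gaps of 37.3 and 109.0 kb. Reads of the identical copies, and of the *Zscan4* copies, are divided between them by the authors' counting, so the value of a single copy is uncertain. RefSeq gave a class to 118 of the symbols. Long non-coding RNAs made up 15 of them (12.7%), beside 1.74% of the 9471 classified genes with a day 1 mean of at least 5 TPM.

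The sharpest peaks belonged to genes that were nearly silent on the other days. *Edn2*, which encodes the secreted vasoconstrictor peptide endothelin 2, was at 7.77, 7.93 and 7.09 TPM on day 1, at 0 in all 3 day 0 libraries, and at no more than 0.245 TPM on days 2 and 3. *Pax8*, a paired-box transcription factor of kidney and thyroid, was at 8.25, 6.77 and 10 TPM on day 1, between 0.538 and 0.806 TPM on day 0, and at no more than 0.543 TPM later. The intracellular calcium channel *Ryr3* (5.08 ± 0.40 TPM on day 1, ratio 11.3) and *Insc*, an adaptor of spindle orientation (6.29 ± 0.07 TPM, ratio 10.4), had peaks of the same kind. Each of these genes was low in level even at its peak, and in the GFP+ libraries each had a mean under 1 TPM in all 3 genotypes.

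Transcription factors and the DNA methyltransferase *Dnmt3a* were among the more abundant of the 119 genes, with a median day 1 mean of 67.3 TPM over 17 of them. *Dnmt3a*, which sets new DNA methylation, was at 10.8, 11.4 and 10.6 TPM on day 0, at 202.0, 198.9 and 200.5 TPM on day 1, at 98.3, 100.7 and 76.2 TPM on day 2, and at 50.0, 66.5 and 55.8 TPM on day 3. *Lef1*, a DNA-binding partner of beta-catenin, rose from between 5.06 and 8.02 TPM on day 0 to 114.7, 116.7 and 118.7 TPM on day 1 and was between 27.1 and 35.4 TPM on day 3. *Wt1*, a zinc finger factor of the developing kidney and gonad, went from 0.548, 1.32 and 0.992 TPM on day 0 to 76.8, 75.6 and 73.4 TPM on day 1 and 13.3, 13.9 and 12.8 TPM on day 3. For all 3 genes the libraries of each day kept apart from those of every other day. The epithelial factor *Grhl2* (3.5 ± 0.40 and 67.3 ± 1.82 TPM on days 0 and 1, SD, n = 3) and the membrane-bound factor *Myrf* (8.20 ± 1.28 and 147.9 ± 8.74 TPM) had the same form.

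A second group of factors started from a higher level. The retinoic acid receptor *Rarg* was at 76.1, 62.8 and 85.1 TPM on day 0 and 243.3, 250.9 and 259.1 TPM on day 1, and *Tcf15*, a basic helix-loop-helix factor, went from 25.8 ± 0.51 to 71.5 ± 9.55 TPM. The proto-oncogene *Myc* was at 13.9, 11.8 and 30.3 TPM on day 0 and 61.5, 61.8 and 71 TPM on day 1. Day 0 library 3 stood above the other two.

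Genes of growth arrest and stress responses included some of the highest levels. *Gadd45g* was at 4.50, 3.37 and 2.90 TPM on day 0 and 118.6, 122.7 and 125.6 TPM on day 1, a ratio of 34.1 between the means, and *Gadd45a* went from 34.3 ± 9.06 to 119.7 ± 9.68 TPM. Both encode small proteins of the growth arrest and DNA damage response. *Gadd45b*, of the same family, did not meet the rule and was at 25.8 ± 0.72 TPM on day 0 and 4.59 ± 0.37 TPM on day 1. The polo-like kinase *Plk3* was at 70.2, 75.5 and 80.5 TPM on day 1 and between 13.1 and 22.2 TPM in every library of the other days. *Hmox1*, heme oxygenase 1, was at 168.0, 189.6 and 179.7 TPM on day 1 and between 70.9 and 104.4 TPM otherwise.

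The most abundant gene was *Akr1b3*, aldose reductase, at 724.2, 691.0 and 696.6 TPM on day 1 and 330.4 ± 45.5 TPM on day 0. The amino acid transporter *Slc38a2* was at 437.5, 433.8 and 441.1 TPM on day 1 and between 119.6 and 225.7 TPM on the other days. A second amino acid transporter, *Slc7a7*, was at 158.4 ± 8.84 TPM on day 1 and 24.3 ± 1.24 TPM on day 0. The actin-binding protein *Twf2* reached 240.4 ± 2.21 TPM, and the imprinted, retrotransposon-derived *Peg10* reached 209.0 ± 16.3 TPM.

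Genes best known from germ cells and from early embryos also took part. *Tex19.1*, which restrains retrotransposons in germ cells and placenta, was at 126.6, 106.4 and 125.3 TPM on day 0, 242.4, 272.3 and 224.2 TPM on day 1 and 7.49, 11.4 and 7.78 TPM on day 3. Its neighbour *Tex19.2*, 27.5 kb away on chromosome 11, peaked at 7.54 ± 1.06 TPM. *Zscan4f*, a marker of the rare 2-cell-like state of mESCs, was at 16.9, 15.4 and 8.36 TPM on day 0 and 50.0, 50.1 and 31.5 TPM on day 1. Library 3 was the lowest of its day on both days. Of 19 genes on a list of 2-cell-like markers 5 met the rule, and 8, all those with a day 1 mean of at least 5 TPM, had their highest mean on day 1. These 8 include *Zscan4* copies, between which reads are divided, and no share over all genes is given beside this count.

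Genes of immune signalling or sensing numbered 12 and were at low levels with a median day 1 mean of 10.3 TPM. The interferon-inducible GTPase *Irgm1* was at 15.6, 17.7 and 12.2 TPM on day 1 and between 2.12 and 3.80 TPM on every other day. The inflammasome sensor *Nlrc4* had a ratio of 5.74, and *Raet1a*, which encodes a ligand of the receptor NKG2D, a ratio of 3.98. Of 11 markers of blood cells, a list added after these genes were seen, 3 were at 0 in all day 1 libraries, and the sum was between 74.6 and 87.1 TPM on day 1 and between 48.9 and 53 TPM on day 0. The part of these markers in the levels of the immune genes was not tested.

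**Figure D1:**
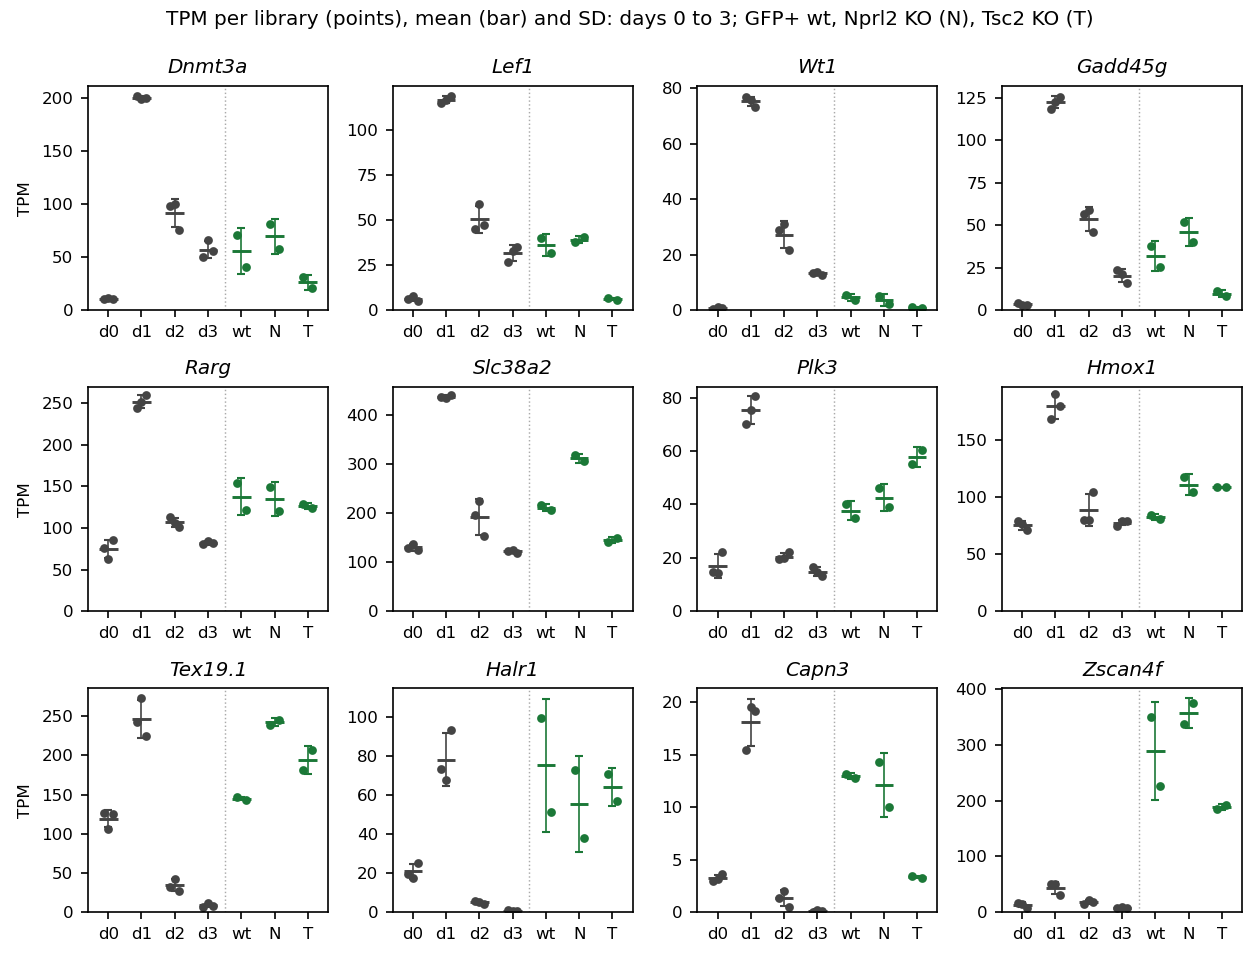
TPM in each library (points) with the group mean (bar) and SD for 12 genes on days 0 to 3 (grey, 3 libraries a day) and in GFP+ wild-type (wt), *Nprl2* KO (N) and *Tsc2* KO (T) cells (green, 2 libraries each). *Dnmt3a*, *Lef1*, *Wt1* and *Gadd45g* stayed above their day 0 level on day 3, *Rarg*, *Slc38a2*, *Plk3* and *Hmox1* came back close to it, and *Tex19.1*, *Halr1* and *Capn3* went below it. *Zscan4f* was higher in all GFP+ libraries than on any day.

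The rule sets no order among days 0, 2 and 3, but it holds the mean of each to at most 0.5 of the day 1 mean, so comparisons among these days are not independent of it. They are given gene by gene, and the counts of genes called describe the selected set, with nothing read from their distance to the shares over all genes. Counts of all genes entered one quasi-likelihood fit (edgeR), a call is an adjusted p under 0.05, and 114 of the 119 genes passed the filter on low counts. *Defa23*, *Lipo1*, *Raet1a*, *Wfdc15a* and *Xlr5c* were not tested. On day 2 compared with day 0, 26 of the 114 genes were called higher (22.8%, beside 34.2% of all 14380 genes tested) and 37 lower (32.5%, beside 32.4%), and the median log2 fold change was -0.03. On day 3 compared with day 0, 17 were called higher (14.9%, beside 35.0% of all genes) and 70 lower (61.4%, beside 35.9%), with a median log2 fold change of -0.91 beside -0.01 for all genes. On day 3 compared with day 2, 1 was higher (0.877%, beside 15.9%) and 70 lower (61.4%, beside 15.6%), with a median of -0.90. The 3 comparisons share libraries. Fibroblast genes summed to between 271.3 and 473.3 TPM on day 3 (25.9 to 44.9 TPM on day 0) and trophoblast genes to between 390.3 and 681.2 TPM (75.2 to 92.5 TPM). The sums do not stand for each list as a whole. On day 3 compared with day 0, 7 of 14 fibroblast genes tested were called higher and 4 lower. Of 9 trophoblast genes tested, 3 were called higher and 6 lower. The part of these lists in the counts of day 1 genes called was not tested.

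**Figure D2:**
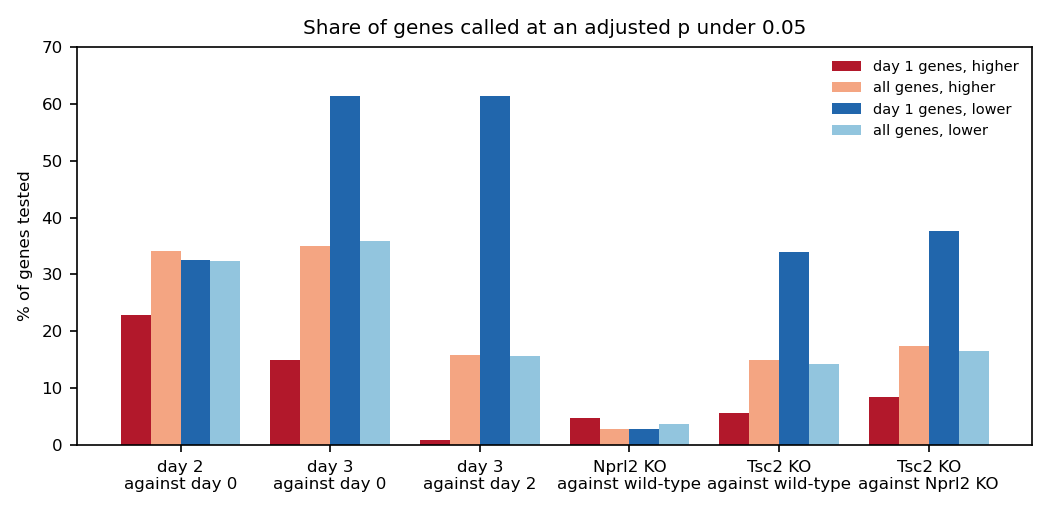
Share of genes tested (%) called higher (red) or lower (blue) at an adjusted p under 0.05 in each comparison, for the day 1 genes (dark bars, 114 tested in the time course and 106 in GFP+ cells) and for all genes (pale bars). The dark blue bars for day 3 reach 61.4%, beside 35.9% and 15.6% of all genes. Comparisons among days are not independent of the rule, and nothing is read from these distances.

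Of the 17 genes that were still above day 0 on day 3, 6 were transcription factors or *Dnmt3a*. The largest rises were those of *Wt1* and of *Crct1* (3.42 ± 0.90 on the log2 scale, SE, edgeR adjusted p = 0.00226). *Crct1* was at 5.77 ± 0.506 TPM on day 1. *Wt1* was higher by 3.67 ± 0.21 on the log2 scale (SE, edgeR adjusted p = 2.2e-10), *Myrf* by 2.72 ± 0.09 (adjusted p = 6.5e-15), *Grhl2* by 2.28 ± 0.09 (adjusted p = 6.9e-14), *Dnmt3a* by 2.28 ± 0.12 (adjusted p = 1.7e-09) and *Lef1* by 2.11 ± 0.16 (adjusted p = 6.9e-08). *Gadd45g* was higher by 2.43 ± 0.20 (adjusted p = 3.5e-09) and *Slc7a7* by 1.41 ± 0.08 (adjusted p = 4.7e-12). All 17 were also called higher on day 2 than on day 0 (beside 34.2% of all genes), with the day 0 libraries shared between the comparisons. Between days 2 and 3, 9 of them were called lower, among them the cyclin *Ccno* (log2 fold change -2.27 ± 0.17, adjusted p = 3.4e-08) and *Gadd45g* (-1.44 ± 0.13, adjusted p = 7.9e-07). *Csrnp1*, a nuclear factor, was at 17.4, 17.3 and 23 TPM on day 0 and 30.2, 26.2 and 26.5 TPM on day 3, with no overlap. *Gadd45a* was higher by 0.46 ± 0.16 on day 3 (adjusted p = 0.0224), and it was not called without day 0 library 1 (adjusted p = 0.0822), day 0 library 2 (0.0953) or day 3 library 1 (0.0985).

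The 70 genes below day 0 on day 3 were 61.4% of the 114 tested. They included 11 of the 15 long non-coding RNAs and 6 of 10 germline and testis genes tested, with no test of either class. *Platr7*, a long non-coding RNA associated with pluripotency, was at 12.3, 14.8 and 13 TPM on day 0 and 0, 0.809 and 0.125 TPM on day 3, with a log2 fold change of -5.45 ± 0.38 (adjusted p = 3.1e-10). *Halr1*, a non-coding RNA beside the *Hoxa* cluster on chromosome 6, was at 19.6, 17.7 and 25.5 TPM on day 0 and 0.999, 0.708 and 0.765 TPM on day 3 (log2 fold change -4.66 ± 0.34, adjusted p = 3.6e-10). Day 3 libraries of both genes lay below all day 0 libraries. *Tex19.1* had a log2 fold change of -3.83 ± 0.20 (adjusted p = 1.1e-08), the oocyte gene *Nlrp4f* of -3.97 ± 0.24 (adjusted p = 7.9e-10), the muscle protease *Capn3* of -4.38 ± 0.43 (adjusted p = 6.9e-08) and the hypoxia-inducible factor *Epas1* of -3.52 ± 0.16 (adjusted p = 5.9e-12). *Pax8*, with the second highest peak, was also below day 0 (-2.86 ± 0.58, adjusted p = 2.1e-04). The abundant *Akr1b3* (-0.90 ± 0.13, adjusted p = 5.4e-05) and *Twf2* (-1.08 ± 0.09, adjusted p = 1.8e-09) fell by less. On day 2, 37 of the 70 were already called lower than on day 0 (beside 32.4% of all genes). On day 3, 50 were called lower than on day 2 (beside 15.6%). Both counts share libraries with the comparison that formed the group, so they are not independent of it.

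By role, the counts were as follows, beside 14.9% above and 61.4% below among all 114 genes tested and 35.0% and 35.9% of all genes. Of the 17 transcription factors and *Dnmt3a*, 6 were above day 0 on day 3, 8 below and 3 not called. Of the 11 immune genes tested, 0 were above and 10 below (*Slfn9* by -3.74 ± 0.30 and *Nlrc4* by -1.70 ± 0.27 on the log2 scale, adjusted p = 3.0e-07 and 1.2e-05). Of the 12 genes of the cytoskeleton and of signalling, 1 was above and 10 below, and of 10 germline and testis genes tested, 2 were above and 6 below. *Zscan4f* was below day 0 on day 3 (-0.82 on the log2 scale, adjusted p = 0.0359), as were 3 more of the 8 2-cell-like copies, and it lost the call without day 0 library 1 or 2 or day 3 library 1 or 3 (adjusted p between 0.0881 and 0.118). These groups were drawn up after the genes were known and are given as counts only, with no test of a difference between them.

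For 27 genes the day 3 and day 0 levels could not be told apart. *Slc38a2* differed by a log2 fold change of -0.17 ± 0.11 (adjusted p = 0.164), *Hmox1* by -0.04 ± 0.08 (adjusted p = 0.673) and *Plk3* by -0.29 ± 0.15 (adjusted p = 0.0861). *Rarg* differed by 0.08 ± 0.08 (adjusted p = 0.414) and *Myc* by 0.12 ± 0.33 (adjusted p = 0.751). Without day 0 library 3, in which *Myc* and *Rarg* were highest, both were called higher on day 3, *Myc* by 0.67 (adjusted p = 5.9e-04) and *Rarg* by 0.19 (adjusted p = 0.0375). *Plk3* was called lower on day 3 without day 0 library 1, day 0 library 2 or day 3 library 1 (adjusted p between 0.0255 and 0.0432). Between days 2 and 3, *Slc38a2* (-0.69 ± 0.11, adjusted p = 4.0e-04) and *Rarg* (-0.40 ± 0.08, adjusted p = 0.00164) were called lower.

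Some of the genes stand on pathway lists, whose other members are given here as counts with no test. No share over all genes is given beside the counts of genes highest on day 1. Of all genes, 35.0% were called higher and 35.9% lower on day 3 compared with day 0. The formative and epiblast list of 16 genes held *Dnmt3a* and *Lef1*, and 7 of the 16 had their highest mean on day 1. On day 3 compared with day 0, 12 of the 16 were called higher and 4 lower. Of 18 Wnt targets *Lef1* alone met the rule, with 10 of 16 tested called higher on day 3 and 6 lower. Of 25 genes of ERK feedback and its targets *Myc* alone met it, with 14 of 23 tested higher and 3 lower. The 13 heat shock and metallothionein genes gave *Hmox1*, with 8 highest on day 1, and of these 13 genes 1 was higher and 8 were lower on day 3. *Rarg* was the single gene of 16 on the retinoic acid list, with 5 of 13 tested higher and 4 lower.

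**Figure D3:**
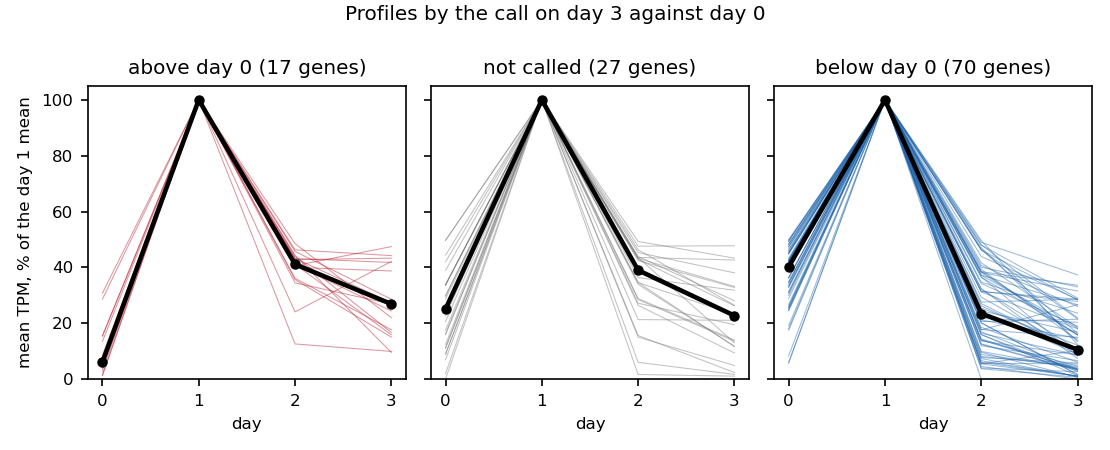
Mean TPM on days 0 to 3 as a percentage of the day 1 mean, for genes called above day 0 on day 3 (17), not called (27) and below day 0 (70), with 1 thin line a gene and the median in black. The median day 0 level was 6.12%, 25% and 40.3% of day 1 in the 3 panels, and the median day 3 level 26.9%, 22.7% and 10.5%.

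In sorted GFP+ wild-type cells, which the rule did not use, most of the genes lay between their day 0 and day 1 levels. The wild-type mean was between the 2 for 77 of the 119 genes, at or below day 0 for 26 and above every day for 16. Both wild-type libraries were above all 3 day 0 libraries for 75 genes. The rule did use the day 0 and day 1 levels that these counts are set against, and it placed day 0 well below day 1. The counts are therefore not independent of the rule. No share over all genes is given beside them, and they serve as a description only. *Capn3* was at 13.2 and 12.8 TPM (3.27 ± 0.32 TPM on day 0), *Ccno* at 22.3 and 18 TPM (1.4 ± 0.09 TPM), *Lef1* at 40.4 and 32.1 TPM (6.49 ± 1.48 TPM) and *Grhl2* at 46.9 and 37.9 TPM (3.5 ± 0.40 TPM). Time course and GFP+ cells are separate sets of libraries, so these values stand side by side without a test.

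The 16 genes above every day in GFP+ wild-type cells included 8 copies known from the 2-cell-like state. *Zscan4f* was at 350.0 and 226.4 TPM, 6.57 times its day 1 mean, *Zscan4c* at 8.19 times, *Zscan4d* at 7.45 times, *Zscan4a* at 4.91 times, and *Gm6763* with its 3 identical copies at 6.43 times. Summed over the 19 genes of the 2-cell-like list, TPM lay between 752.2 and 1159.2 in GFP+ wild-type, between 106.1 and 174.2 on day 1, and between 24.4 and 34.6 on day 3. The other 8 genes had ratios between 1.05 (*Peg10*) and 5.47 (*1500026H17Rik*). One of them, *S100a6*, was at 68.8 TPM in GFP+ wild-type cells and 44.3 TPM on day 1.

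**Figure D4:**
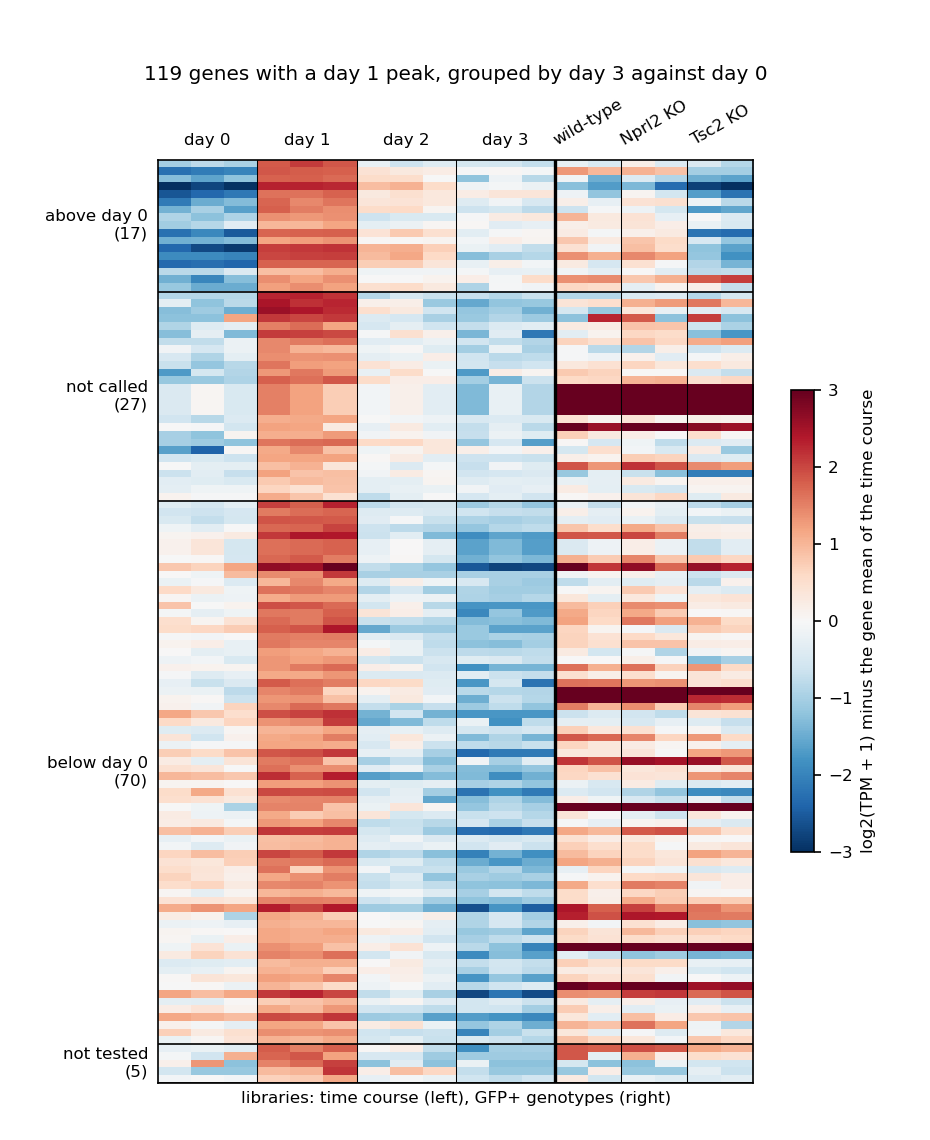
Level of all 119 genes in the 18 libraries, as log2(TPM + 1) minus the mean of the gene over the time course (colour, limited to 3 in either direction), in blocks by the call on day 3 against day 0. Day 1 is the highest day in every row by the rule. Red on the right marks GFP+ libraries above that mean, and not always above every day. Among the dark red rows are the *Zscan4* copies, whose GFP+ libraries exceed every day.

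The GFP+ comparisons ask how loss of either restraint of mTORC1 acts on these genes in cells still marked as naive. The same fit over all genes tested 106 of the 119. *Asphd1*, *Cox7b2*, *Defa23*, *Dgkeos*, *Edn2*, *Gpx6*, *Insc*, *Lipo1*, *Ptprcap*, *Raet1a*, *Rhox1*, *Wfdc15a* and *Xlr5c* were not tested. Both KO genotypes were compared with the same 2 wild-type libraries. Library 1 was above library 2 in all 3 genotypes for 48 of the 119 genes (40.3%), beside 18.1% of 9848 genes with a mean of at least 5 TPM, and below it for 5 (4.2%, beside 21.7%). Naive pluripotency genes summed to between 2022.6 and 2032.2 TPM in wild-type, 1522.0 and 1586.6 TPM in *Nprl2* KO and 3290.5 and 3429.8 TPM in *Tsc2* KO. Fibroblast genes summed to between 295.4 and 395.2, 307.0 and 332.2, and 92.6 and 361.7 TPM, with none of the 16 at 0 throughout a genotype. The part of these in the results on GFP+ cells was not tested.

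In *Nprl2* KO the lowest adjusted p-values were those of *Tex19.1* and *Slc38a2*. Of the 106 tested 5 were called higher (4.72%, beside 2.78% of all 13724 genes) and 3 lower (2.83%, beside 3.65%), and the median log2 fold change was 0.10. *Tex19.1* was at 146.5 and 143.3 TPM in wild-type and 238.1 and 245.3 TPM in *Nprl2* KO (log2 fold change 0.76 ± 0.07, adjusted p = 1.1e-04). *Slc38a2* was at 216.3 and 206.2 TPM in wild-type and 318.6 and 305.5 TPM in *Nprl2* KO (0.61 ± 0.06, adjusted p = 1.4e-04). Both KO libraries were above both wild-type libraries for these genes, and both genes stayed called with any 1 library left out. *Hmox1* (0.45 ± 0.08, adjusted p = 0.00715), *Mvp*, the main protein of vault particles (0.64 ± 0.14, adjusted p = 0.0253), and *4930548H24Rik* (0.85 ± 0.15, adjusted p = 0.00621) were higher. *Vmn2r55*, a vomeronasal receptor gene (-0.68 ± 0.16, adjusted p = 0.0253), the zinc finger factor *Bnc2* (-0.61 ± 0.13, adjusted p = 0.0156) and *Peg10* (-0.41 ± 0.10, adjusted p = 0.0385) were lower. Each of these other 6 lost its call without at least 1 library: *Hmox1* and *Mvp* without *Nprl2* KO library 1 (adjusted p = 0.0623 and 0.108), *4930548H24Rik*, *Vmn2r55* and *Bnc2* without *Nprl2* KO library 2 (0.0581, 0.0849 and 0.132), and *Peg10* without wild-type library 2 (0.144). *Lef1* (0.23 ± 0.11, adjusted p = 0.218), *Grhl2* (-0.16 ± 0.10, adjusted p = 0.407) and *Dnmt3a* (0.36 ± 0.42, adjusted p = 0.703) were not called. The count depended on the settings: without the filter on low counts it was 22 higher and 13 lower. Without wild-type library 1 it became 14 higher and 0 lower, and without *Nprl2* KO library 2 it was 4 higher and 1 lower. The median moved between -0.06 and 0.24 over the libraries left out.

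In *Tsc2* KO most of the genes called were lower. Of the 106 tested 6 were called higher (5.66%, beside 14.9% of all genes) and 36 lower (34.0%, beside 14.2%), with a median log2 fold change of -0.55 beside 0.00 for all genes. *Lef1* was at 40.4 and 32.1 TPM in wild-type and 6.66 and 6.04 TPM in *Tsc2* KO (-2.36 ± 0.12, adjusted p = 2.3e-07), and *Ccno*, a cyclin of multiciliated cells, at 22.3 and 18 TPM and 3.05 and 1.56 TPM (-3.18 ± 0.25, adjusted p = 7.9e-06). *Grhl2* was at 46.9 and 37.9 TPM in wild-type and 8.60 and 8.64 TPM in *Tsc2* KO (-2.33 ± 0.11, adjusted p = 1.5e-07). The libraries of the 2 genotypes were well apart for these 3 genes, and the *Tsc2* KO libraries of *Lef1* lay within the range of its day 0 libraries. *Gadd45g* was at 38 and 25.5 TPM and 11.3 and 8.37 TPM (-1.75 ± 0.23, adjusted p = 3.1e-04), and *Capn3* at 13.2 and 12.8 TPM and 3.45 and 3.29 TPM (-1.95 ± 0.20, adjusted p = 3.1e-05). *Csrnp1* was at 28.8 and 25.2 TPM and 17.8 and 18.2 TPM (-0.62 ± 0.13, adjusted p = 0.0029). In the 4 genes whose upstream sequence is printed for this pattern, *Gadd45g*, *Gadd45a*, *Lef1* and *Csrnp1*, both *Tsc2* KO libraries were below both wild-type libraries, and 2 of all 6 genes of this pattern with an upstream sequence held an octamer there, with *Ccno* and *Tcte2* among those without one. *Wt1* had a log2 fold change of -2.21 ± 0.44 (adjusted p = 0.00631) and *Gadd45a* of -0.59 ± 0.12 (adjusted p = 0.00352), and neither was called without *Tsc2* KO library 2 (adjusted p = 0.0657 and 0.0563).

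Some genes with large differences had wild-type libraries far apart, and their calls depended on the settings. *Dnmt3a* was at 71.1 and 40.9 TPM in wild-type and 31.6 and 21.6 TPM in *Tsc2* KO (-1.10 ± 0.43, adjusted p = 0.166), and *Myrf* at 41.1 and 19.7 TPM and 13.8 and 9.03 TPM (-1.45 ± 0.55, adjusted p = 0.162). *Slc7a7* was at 115.5 and 78.8 TPM and 46.3 and 28.6 TPM (-1.41 ± 0.34, adjusted p = 0.0547), and it was called without *Tsc2* KO library 1 (adjusted p = 0.00806) or library 2 (0.0461). DESeq2 called *Slc7a7* (adjusted p = 0.00172) and *Myrf* (adjusted p = 0.0433). In all 3 genes both *Tsc2* KO libraries were below both wild-type libraries. *Slc38a2*, with wild-type libraries close together, was lower in *Tsc2* KO at 141.0 and 149.5 TPM (-0.57 ± 0.06, adjusted p = 3.3e-05). On the list of 16 formative and epiblast genes, which holds *Dnmt3a* and *Lef1*, 8 of 16 tested were called lower in *Tsc2* KO and 1 higher. Of all genes, 14.2% were lower and 14.9% higher there. In *Nprl2* KO 0 of the list were lower and 2 higher, beside 3.65% and 2.78% of all genes.

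The 6 genes higher in *Tsc2* KO were *Nlrp4f* (0.95 ± 0.14, adjusted p = 3.8e-04), *Arhgdib* (0.88 ± 0.18, adjusted p = 0.00294), *Plk3* (0.58 ± 0.10, adjusted p = 0.00134), *Peg10* (0.54 ± 0.10, adjusted p = 0.00273), *Tex19.1* (0.38 ± 0.07, adjusted p = 0.00198) and *Hmox1* (0.36 ± 0.08, adjusted p = 0.00624). *Plk3* was at 40.2 and 35.1 TPM in wild-type and 55.2 and 60.4 TPM in *Tsc2* KO. *Tex19.1* was at 181.2 and 206.1 TPM in *Tsc2* KO, above wild-type and below *Nprl2* KO, while *Peg10* was at 298.9 and 355.2 TPM in *Tsc2* KO and at 146.0 and 175.6 TPM in *Nprl2* KO. *Hmox1* was at 117.2 and 104.3 TPM in *Nprl2* KO and 108.2 and 108.8 TPM in *Tsc2* KO, compared with 84.2 and 80.6 TPM in wild-type.

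Of the 8 copies known from the 2-cell-like state 5 were called lower in *Tsc2* KO. *Zscan4a* was at 71 and 43.3 TPM in wild-type and 25.3 and 24.6 TPM in *Tsc2* KO (-1.24 ± 0.22, adjusted p = 0.01), and it was not called without *Tsc2* KO library 2 (adjusted p = 0.0579). *Gm6763*, whose identical copies make up the other calls, had a log2 fold change of -0.79 ± 0.14 (adjusted p = 0.00218). *Zscan4f* was not called (-0.65 ± 0.21, adjusted p = 0.0935), with wild-type libraries at 350.0 and 226.4 TPM, and was called without either wild-type library (adjusted p = 0.0279 without library 1 and 2.3e-05 without library 2) and by DESeq2 (adjusted p = 0.0465). Without the 8 copies, an alternative chosen after the data were seen, 31 genes were called lower in *Tsc2* KO and 6 higher.

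Set directly against each other, 9 of the 106 genes were higher in *Tsc2* KO than in *Nprl2* KO (8.49%, beside 17.5% of all genes) and 40 lower (37.7%, beside 16.6%), with a median log2 fold change of -0.55. *Slc38a2* had one of the clearest differences, at -1.18 ± 0.06 (adjusted p = 1.0e-07), being above wild-type in *Nprl2* KO and below it in *Tsc2* KO. *Peg10* had the opposite order (0.94 ± 0.10, adjusted p = 7.9e-05). *Ccno* (-3.30 ± 0.25, adjusted p = 3.2e-06), *Lef1* (-2.60 ± 0.12, adjusted p = 4.3e-08), *Gadd45g* (-2.26 ± 0.22, adjusted p = 3.2e-05) and *Grhl2* (-2.18 ± 0.11, adjusted p = 1.1e-07) were lower in *Tsc2* KO. For *Hmox1* the 2 KO genotypes differed by -0.09 ± 0.08 on the log2 scale (adjusted p = 0.42).

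The calls in *Tsc2* KO are also given by where the genes stood on day 3, beside 14.2% of all genes called lower and 14.9% higher. Of the 17 genes above day 0 on day 3, 8 were called lower in *Tsc2* KO and 1 higher (*Peg10*), with a median log2 fold change of -1.41, and 16 of the 17 had a negative value. Of the 65 genes below day 0 that were tested in GFP+ cells, 20 were lower and 3 higher, with a median of -0.47. Of the 24 remaining genes 8 were lower and 2 higher, with a median of -0.26. In *Nprl2* KO the 3 medians were 0.10, 0.01 and 0.31. The difference between these groups of genes was not tested.

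**Figure D5:**
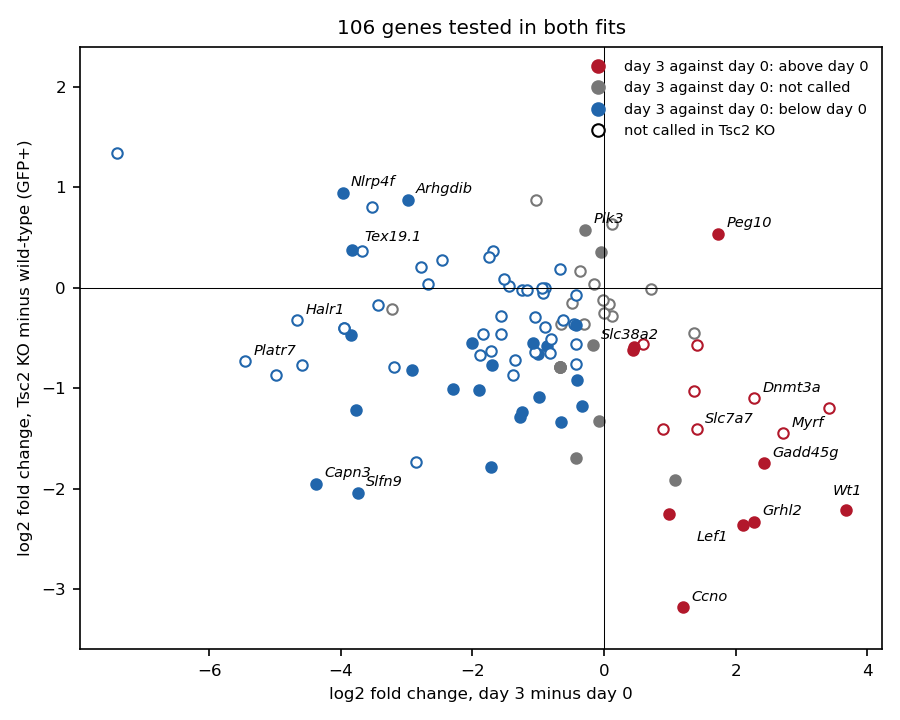
Log2 fold change of 106 genes from day 0 to day 3 (x axis) and from GFP+ wild-type to *Tsc2* KO (y axis), coloured by the call on day 3, with open circles for genes not called in *Tsc2* KO. *Wt1*, *Lef1*, *Grhl2*, *Gadd45g* and *Ccno* lie at the lower right, higher on day 3 than on day 0 and lower in *Tsc2* KO, with *Peg10* the called gene at the upper right.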

How the data were processed

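RNA-seq of 12 time-course libraries (days 0, 1, 2 and 3, 3 each) and 6 libraries of GFP+ mESCs (2 per genotype) was analysed. For each library the authors deposited estimated counts per RefSeq transcript from kallisto (version 0.42.1 and mm10 per the submitters' processing notes), and these counts are not normalized between libraries. The authors also deposited TPM, per transcript and in a table per gene, which are scaled within each library only. The rule and all TPM in the text use the table per gene. Log2 fold changes and p-values from DESeq2 for each KO against wild-type, also deposited, hold the authors' comparisons and were not used. GFP+ libraries were stranded, paired-end mRNA libraries, and for the time course the labels name RNeasy extraction and standard Illumina libraries.

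For the tests, counts were summed per gene through RefSeq (33713 of 34079 transcripts) and GENCODE (192), rounded, and fitted with edgeR 4.0.16 in R 4.3.3 (low-count filter, TMM, robust quasi-likelihood test, Benjamini-Hochberg over all genes, threshold 0.05), all time-course libraries in one fit and all GFP+ libraries in another. The SE is that of the log2 fold change. Transcripts without a gene held between 1.65% and 3.57% of counts. A count of 0 allows up to 3 counts, or between 0.196 and 0.348 CPM, for counting error only. *Raet1a* and *Lipo1* had no counts under their symbols. Tested on simulated data for day 3 against day 0 (14089 genes), the fit called 92.5% of genes changed 2-fold. The changed genes were drawn only from those above a minimum mean level.

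Alternatives were DESeq2 1.42.0, upper-quartile scaling, no low-count filter, a replicate block, limma 3.58.1 on log2(TPM + 1), each library left out, and other thresholds of the rule. Genes named were the 25 with the largest peak ratio, the 10 with the highest day 1 mean, members of pathway lists, the 5 largest calls in each direction per comparison and those nearest the thresholds. *Tcf15*, *Tex19.2*, *Gadd45a*, *Csrnp1*, *Epas1*, *Slfn9*, *S100a6*, *1500026H17Rik*, *Tnfsf12*, *Spn* and *Gadd45b* were added after their values were seen, as were genes named for their role. Members and lists were chosen with earlier results of these data known. Coordinates and promoter sequences are from RefSeq, GRCm38.p6. Results on some genes are not reported here.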

Additional observations from a re-analysis of the deposited data

How the results depend on the processing

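The number of day 1 members was 288 with a fold threshold of 1.5 and 30 with a threshold of 3. It lay between 83 and 167 under the other settings of the rule and between 112 and 126 with 1 library left out. Counts of genes called in the time course stayed within 1.5 times their values in the report under every alternative, from 59 to 66 for day 2 against day 0, 79 to 88 for day 3 against day 0 and 60 to 73 for day 3 against day 2 with 1 library left out. In *Nprl2* KO 35 genes were called without the low-count filter (22 higher, 13 lower), 5 by limma, 7 by DESeq2, and between 5 and 14 with 1 library left out, and the cause was not tested. The count in *Tsc2* KO was between 32 and 47 with 1 library left out, and 62 without the filter, and that of *Tsc2* KO against *Nprl2* KO between 39 and 46. Same-numbered libraries carry no stated pairing. Their deviations correlated between -0.181 and 0.226 in the time course and between 0.161 and 0.307 in GFP+ cells, where there are 2 pairs per comparison. With the replicate number as a block, 26 genes were called in *Nprl2* KO (13 higher, 13 lower), 60 in *Tsc2* KO (8 higher, 52 lower) and 63 between the KO genotypes, and 65, 92 and 76 in the 3 comparisons of the time course. Of the genes named as not called, the block called *Dnmt3a* in *Nprl2* KO (0.39, adjusted p = 3.0e-04), and in *Tsc2* KO *Dnmt3a* (-1.08, adjusted p = 6.3e-10), *Myrf* (-1.41, adjusted p = 2.4e-08) and *Slc7a7* (-1.42, adjusted p = 9.3e-07). Without day 0 library 3, *Myc* was at 0.67 and *Rarg* at 0.19, both called. Fold changes that turned sign were all small and not called, for day 3 against day 0: *Myc* at -0.05, -0.14 and -0.02 without day 0 library 1, day 0 library 2 or day 3 library 2, *Rarg* at -0.03 without day 0 library 2, and *Hmox1* at 0.00 with upper-quartile scaling and 0.05 with limma. Of the other gene values compared, 1111 kept their direction and call, 38 lost a call and 30 gained one. Depth and 2 libraries per group limit the GFP+ tests: in simulated data for *Tsc2* KO against wild-type (13542 genes) 59.7% of genes changed 1.5-fold and 86.6% of genes changed 2-fold were called. The changed genes were drawn only from those above a minimum mean level, and the simulated libraries were independent. These rates therefore do not cover genes at lower levels or differences shared by same-numbered libraries.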
